A study of Homo sapiens with 60 samples.

Results

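Retinoid metabolism genes are described here across A549 cells treated with herbal extracts. The set holds 8 genes of the 60675 in the count table: CYP26B1, CYP26A1, DHRS3, BCO1, CRABP2, RARA, RARB and RARG. They were listed by name, with the higher CYP26B1 level in Schisandrae Fructus and Soshiho-tang at the high dose already seen, so the values of those 2 groups are given as a description, with no test and no p-value. All 8 genes passed the filter on low counts, which left 17826 genes for testing.

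A549 is an established line from a human non-small cell lung carcinoma and carries alveolar epithelial features. The cells received 1 of 8 extracts for 24 h, and mRNA was sequenced from 60 libraries in 25 groups. Yijin-tang and Soshiho-tang are multi-herb decoctions extracted with water. The single herbs, all extracted with ethanol, are Schisandrae Fructus, Liriopis seu Ophiopogonis Tuber, Zizyphi Semen, Longan Arillus, Aucklandiae Radix and Polygalae Radix. The low, medium and high doses were 20, 100 and 500 ug/mL for the decoctions and the first 4 of these herbs, 15.2, 76 and 380 ug/mL for Polygalae Radix, and 14.8, 74 and 370 ug/mL for Aucklandiae Radix; the lower top doses were set by growth inhibition, and samples with too little RNA were left out, both per the design text. Each group had 3 libraries, but Soshiho-tang had 2 at each dose, and Aucklandiae Radix and Polygalae Radix had 1. The 3 vehicle libraries received DMSO, 0.1% in the sample labels and 2% in the series' design text. Library names place both decoctions in set 8, Liriopis seu Ophiopogonis Tuber and Schisandrae Fructus in set 9, Longan Arillus and Zizyphi Semen in set 10, and Polygalae Radix and Aucklandiae Radix in set 11. All vehicle libraries carry set C1, so an extract's difference from vehicle and a difference between sets cannot be told apart. Nothing in the labels says that replicates were separate cultures, and a p-value here is set against library-to-library spread that could be purely technical.

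Retinoic acid is made from retinol in a pair of oxidation steps and acts through RAR receptors, which bind DNA as partners of RXR receptors. The level of the ligand is held down by the CYP26 enzymes, which hydroxylate retinoic acid, and by DHRS3, which turns retinaldehyde back into retinol; CYP26A1, DHRS3 and RARB are known in many human and mouse cells as genes that retinoic acid itself induces. BCO1 cleaves beta-carotene into retinaldehyde, and CRABP2 is a small cytosolic protein that carries retinoic acid to the receptors. In the lung, retinoids are known for roles in alveolar formation and in epithelial differentiation.

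Promoters of 4 of these genes are printed because they differ in whether they hold the letters of the repeat that RAR and RXR partners are known to bind. Each is the 250 bases before a RefSeq transcription start (GRCh38.p14), and all 8 genes matched, with 16 promoters. The core motif was searched as AGGTCA and 3 variants of it. The variants replace the first letter by G (GGGTCA) or the third by T (the AGTTCA form), or do both, which is the GGTTCA form. Both strands were searched, overlaps were allowed, and every match is in capitals. The first pair, CYP26B1 (chr2:72147863-72148112, minus strand) and DHRS3 (chr1:12618211-12618460, minus strand), belongs to the genes whose level was higher in both Schisandrae Fructus and Soshiho-tang at the high dose. The second pair, CYP26A1 (chr10:93073643-93073892, plus strand) and RARB (chr3:25428013-25428262, plus strand), holds a direct repeat of the core motif with 5 bases between its parts.
CYP26B1: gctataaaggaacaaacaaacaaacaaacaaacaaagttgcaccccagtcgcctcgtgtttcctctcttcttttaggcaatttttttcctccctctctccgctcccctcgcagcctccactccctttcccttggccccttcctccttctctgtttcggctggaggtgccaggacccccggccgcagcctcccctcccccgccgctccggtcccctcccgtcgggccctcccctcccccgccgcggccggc
DHRS3: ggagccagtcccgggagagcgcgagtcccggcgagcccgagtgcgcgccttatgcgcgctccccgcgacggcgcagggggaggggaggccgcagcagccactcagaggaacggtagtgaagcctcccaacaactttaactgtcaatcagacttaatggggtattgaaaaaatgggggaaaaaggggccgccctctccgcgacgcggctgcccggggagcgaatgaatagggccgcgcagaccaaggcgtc
CYP26A1: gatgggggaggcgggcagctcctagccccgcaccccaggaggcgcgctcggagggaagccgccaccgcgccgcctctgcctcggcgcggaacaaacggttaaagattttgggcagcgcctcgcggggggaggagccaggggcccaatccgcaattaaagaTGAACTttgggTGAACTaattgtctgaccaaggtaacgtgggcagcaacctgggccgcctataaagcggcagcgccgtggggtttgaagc
RARB: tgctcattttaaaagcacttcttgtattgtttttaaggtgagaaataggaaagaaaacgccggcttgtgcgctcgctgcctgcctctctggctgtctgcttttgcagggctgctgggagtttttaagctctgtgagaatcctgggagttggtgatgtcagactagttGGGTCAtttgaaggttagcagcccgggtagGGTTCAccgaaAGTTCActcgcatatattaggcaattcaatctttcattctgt
The direct repeat with a spacer of 5 bases was found in 26 of 35116 promoters of this length (0.074%), and 2 of the 26 are the CYP26A1 and RARB promoters above. In the CYP26A1 promoter the matches begin 90 and 79 bases before the start, and in the RARB promoter the repeat begins 53 and 42 bases before it, with a single match at 83. No match lies in the printed CYP26B1 and DHRS3 windows, though 2 other DHRS3 promoters hold one. The promoters of CYP26A1 and RARB that are not printed do not hold the repeat. A single core motif occurs in 33.8% of all promoters and in 8 of the 16 promoters of these genes. A match is a stretch of letters and not a measured binding site.

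Library totals ran from 18002661 to 33831747 counts. In 2 libraries, replicate 3 of Soshiho-tang medium and replicate 3 of Longan Arillus low, long transcripts were under-represented: the deviation of log2(CPM + 1) from the median library changed by -0.43 and -0.50 per doubling of exon length, against -0.10 to 0.11 in the other libraries. Mitochondrial genes took 9.88% and 8.16% of counts there. The epithelial keratins KRT8 and KRT18 averaged 3600 and 2810 CPM (read counts scaled to library size) in vehicle cells, while the surfactant genes SFTPB and SFTPC and the alveolar factor NKX2-1 were under 1 CPM. Of the 8 leukocyte markers 5, of the 8 fibroblast markers 5 and of the 6 endothelial markers all were under 1 CPM in vehicle cells. In bulk RNA, fewer cells with a transcript and less transcript per cell cannot be told apart.

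Set against each other per length, the 8 genes covered a wide range of levels in vehicle cells. DHRS3 stood highest at 29.9 ± 0.96 CPM per kb of merged exons (SD, n = 3), followed by RARG at 13.1 ± 0.369, RARA at 11.5 ± 0.754, RARB at 8.24 ± 0.626 and CYP26B1 at 6.1 ± 0.166. CRABP2 reached 2.46 ± 0.25 CPM per kb, and CYP26A1 and BCO1 stood at 0.895 ± 0.114 and 0.791 ± 0.0113. Among other genes of the pathway, the retinaldehyde dehydrogenase ALDH1A1 stood at 3040 ± 24.1 CPM per kb, far above its relatives ALDH1A3 at 4.03 ± 0.189 and ALDH1A2 at 0.00266 ± 0.00461. RXRA, the RAR partner, stood at 40.6 ± 0.485 CPM per kb, while RXRG was at 0 in all vehicle libraries. LRAT, which stores retinol as esters, stood at 0.0106 ± 0.00626 CPM per kb.

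CYP26B1 (ENSG00000003137), an enzyme that removes retinoic acid, was highest at the high doses of Polygalae Radix, Schisandrae Fructus and Aucklandiae Radix, and Soshiho-tang high was next but for Aucklandiae Radix medium. Levels are CPM scaled with TMM factors. The single Polygalae Radix high library had 68.4 CPM. The Schisandrae Fructus high libraries had 53.6, 53.4 and 51.5 CPM, the Aucklandiae Radix high library had 49.0 CPM, and the Soshiho-tang high libraries had 42.6 and 42.9 CPM. The vehicle libraries had 30.1, 28.5 and 29.5 CPM. None of these 4 groups overlapped another of them or the vehicle group; of all genes tested, 13.4% were higher than vehicle without overlap in Schisandrae Fructus high and 25.5% in Soshiho-tang high.

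Other groups lay closer together. Aucklandiae Radix medium and low had 43.3 and 39.6 CPM, Polygalae Radix medium and low had 38.6 and 38.0 CPM, and Zizyphi Semen high had 37.3, 37.6 and 37.4 CPM. From Schisandrae Fructus medium, with a mean of 36.3 CPM, down to Yijin-tang medium, with a mean of 32.2 CPM, each of 13 groups overlapped the next, so neighbours in this stretch do not differ beyond their spread. Its ends do not overlap: Schisandrae Fructus medium had 35.2 to 37.2 CPM and Yijin-tang medium 31.6 to 33.3 CPM. The 2 lowest groups hold the 2 libraries poor in long transcripts: Soshiho-tang medium had 31.5 and 27.1 CPM, and Longan Arillus low had 36.2, 34.6 and 16.2 CPM. In both the lowest value belongs to that library. The merged exons of CYP26B1 span 4813 bases at chr2:72129238-72148038 (GENCODE 29), the longest merged exons of the 8 genes.

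**Figure D1:**
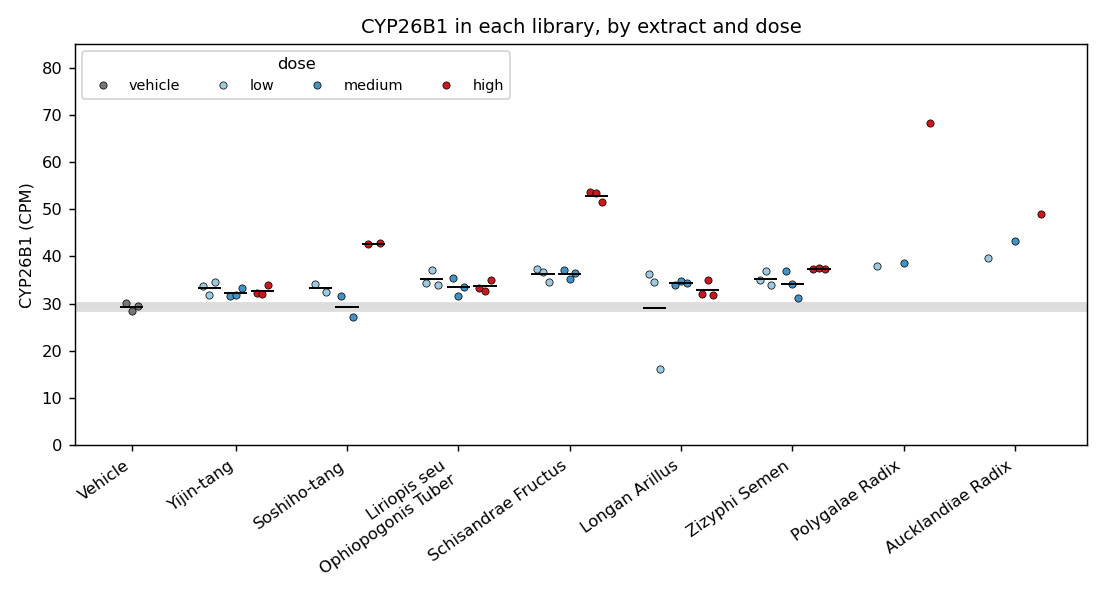
CYP26B1 level in CPM (vertical axis) in each of the 60 libraries, grouped by extract and dose along the horizontal axis; points are libraries, black lines are means of groups with 2 or 3 libraries, and the grey band is the range of the 3 vehicle libraries. The high-dose points of Polygalae Radix, Schisandrae Fructus, Aucklandiae Radix and Soshiho-tang lie at 42.6 CPM or above.

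In Schisandrae Fructus CYP26B1 stood apart at the high dose. The high dose averaged 52.8 ± 1.18 CPM (SD, n = 3). The medium dose had 37.2, 35.2 and 36.5 CPM, and the low dose had 37.4, 36.6 and 34.6 CPM. The medium and low doses overlapped and the high dose stood apart from both. Between the high and low doses, 9.13% of all genes tested were higher without overlap. Fitted log2 fold changes of the high dose were 0.85 over vehicle (SE 0.121) and 0.55 over the low dose (SE 0.121). In Soshiho-tang the high dose averaged 42.7 ± 0.265 CPM (n = 2) and the low dose had 34.1 and 32.4 CPM, with log2 fold changes of 0.54 over vehicle (SE 0.135) and 0.37 over the low dose (SE 0.149). In the other extract of each set the high dose lay lower: Yijin-tang high had 32.3, 32.0 and 33.9 CPM, and Liriopis seu Ophiopogonis Tuber high had 33.4, 32.7 and 35.1 CPM.

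The other members differed between those 2 groups. In Schisandrae Fructus high the fitted log2 fold changes over vehicle were 0.40 for DHRS3 and 0.23 for CYP26A1 (SE 0.196), and between -0.08 and 0.12 for the other 5 genes. In Soshiho-tang high they were 0.32 for DHRS3, -0.42 for BCO1 and -0.39 for CRABP2 (SE 0.228), and between -0.17 and 0.09 for the other 4 genes. These values moved by less than 0.01 without the 2 libraries poor in long transcripts. They are a description, since the genes were chosen with these contrasts in view.

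Outside those 2 groups, CYP26B1 was above vehicle in most libraries. The same 3 vehicle libraries were in view when CYP26B1 was chosen. Its counts and p-values against vehicle, here and below, are thus not independent of that choice. The largest ratios to the vehicle mean were 2.33 in Polygalae Radix high, 1.67 in Aucklandiae Radix high and 1.47 in Aucklandiae Radix medium, each from 1 library. Of the 52 extract libraries outside the 2 groups, 50 lay above all 3 vehicle libraries and 2 below them; 0.858% of all genes tested had as many above. The 2 below are the libraries poor in long transcripts. In 14 of 16 comparisons of an extract dose with vehicle the libraries did not overlap, all higher, where 14.0% of all gene tests in these comparisons were higher without overlap. In these replicated groups the fitted log2 fold changes ran from -0.000323 in Soshiho-tang medium to 0.35 in Zizyphi Semen high (SE 0.122, adjusted p = 0.102). With all 54 replicated libraries in the fit, 0 of the 16 were called by edgeR's quasi-likelihood test, where 3.71% of all gene tests in these comparisons were called. At an unadjusted p under 0.05 there were 5 of 16, and DESeq2 called 1 of 16.

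Without the 2 libraries, 13 of the 16 were called, all higher, where 4.7% of all gene tests in these comparisons were called higher. In the 2 groups that lost a library the log2 fold change moved, to 0.27 in Longan Arillus low (adjusted p = 1.74e-04), against 0.00134 with it, and to 0.10 in Soshiho-tang medium (adjusted p = 0.611), against -0.000323 with it. In the other 14 it moved by less than 0.01 and the standard errors shrank. Zizyphi Semen high stood at 0.35 over vehicle (SE 0.0487, edgeR adjusted p = 8.3e-07), with 37.3 to 37.6 CPM against 28.5 to 30.1 CPM in vehicle. Schisandrae Fructus medium stood at 0.31 (SE 0.0486, adjusted p = 3.48e-05) and Schisandrae Fructus low at 0.30 (SE 0.0484, adjusted p = 4.28e-05). The smallest called value was 0.16 in Yijin-tang high (SE 0.0496, adjusted p = 0.0444). All of these comparisons share the 3 vehicle libraries, which are of another set and were in view when CYP26B1 was chosen. Low values in them would raise all these comparisons and the chosen ones together. Within sets, where no vehicle library enters, CYP26B1 was called in 0 of 11 comparisons with or without the 2 libraries (lowest edgeR adjusted p = 0.16 with them and 0.0626 without them). Of all gene tests in these 11 comparisons 3.36% were called with the 2 libraries and 0.268% without them. A count of 0 thus lies near the share over all genes.

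**Figure D2:**
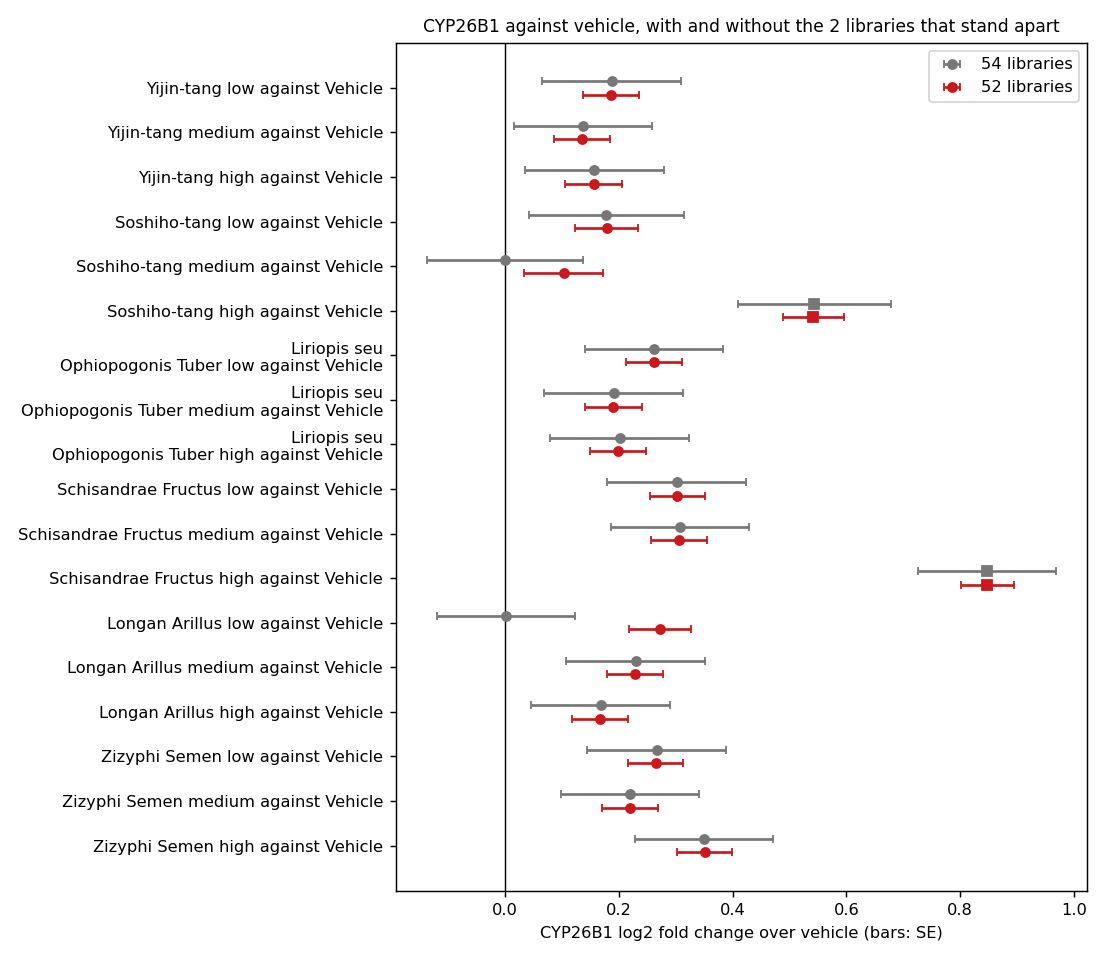
Fitted log2 fold change of CYP26B1 over vehicle (horizontal axis, bars are SE) for 18 extract doses (vertical axis), from all 54 replicated libraries in grey and from 52 libraries, without the 2 poor in long transcripts, in red; squares mark the 2 groups for which CYP26B1 was chosen. Most points keep their place while the bars narrow, and Longan Arillus low, at 0.00 with 54 libraries, lies at 0.27 with 52.

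CYP26A1 (ENSG00000095596), the retinoic acid hydroxylase with the direct repeat in the promoter printed above, had low counts and stood out in 1 library. Aucklandiae Radix high had 5.59 CPM from 122 counts (95% Poisson interval 4.65 to 6.68 CPM, counting error only). Aucklandiae Radix medium had 2.46 CPM and low had 1.75 CPM, and the vehicle libraries had 2.54, 2.13 and 2.0 CPM. The other 59 libraries lay at or below 3.73 CPM, the value of Soshiho-tang medium replicate 3. Schisandrae Fructus high had 2.68, 2.6 and 2.53 CPM, and Soshiho-tang high had 2.28 and 2.19 CPM, both overlapping vehicle. In the 27 comparisons outside the 2 chosen groups CYP26A1 was called in 0, with or without the 2 libraries poor in long transcripts. The lowest edgeR adjusted p was 0.223 with them and 0.313 without them. With them 1 of 27 had an unadjusted p under 0.05, and DESeq2 called 0. Of all gene tests in these comparisons, edgeR called 3.57% with the 2 libraries and 6.64% without them.

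DHRS3 (ENSG00000162496), which returns retinaldehyde to retinol, shared the high-dose groups of CYP26B1. Aucklandiae Radix high had 82.9 CPM, Schisandrae Fructus high had 69.1, 69.5 and 64.7 CPM, Soshiho-tang high had 63.9 and 64.1 CPM, and Polygalae Radix high had 62.0 CPM. The vehicle libraries had 52.3, 52.4 and 49.5 CPM, below every library of those 4 groups. Of all genes tested, 13.4% were higher than vehicle without overlap in Schisandrae Fructus high and 25.5% in Soshiho-tang high. Fitted log2 fold changes over vehicle were 0.40 in Schisandrae Fructus high (SE 0.0833) and 0.32 in Soshiho-tang high (SE 0.0928), and over their own low doses 0.29 (SE 0.0833) and 0.27 (SE 0.103). The libraries poor in long transcripts were high for this shorter transcript (1722 exon bases), with 76.6 CPM in Soshiho-tang medium replicate 3 and 69.8 CPM in Longan Arillus low replicate 3.

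Outside the chosen groups, DHRS3 lay above all vehicle libraries in 45 of 52 extract libraries and below them in 1, and 4.12% of all genes had as many above. It was called higher over vehicle in Longan Arillus low (log2 fold change 0.27, SE 0.0835, edgeR adjusted p = 0.0108), where the libraries had 58.3, 56.8 and 69.8 CPM. In that comparison 21.5% of all genes were called higher. Without the 2 libraries the DHRS3 log2 fold change was 0.16 (SE 0.0583, edgeR adjusted p = 0.0341), where 11.2% of all genes were called higher. Zizyphi Semen high, with 64.0, 55.7 and 57.9 CPM, was then called as well (0.20, SE 0.0526, edgeR adjusted p = 0.00403), against an adjusted p of 0.191 with all libraries. Without the 2 libraries 9.29% of all genes were called higher in Zizyphi Semen high.

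**Figure D3:**
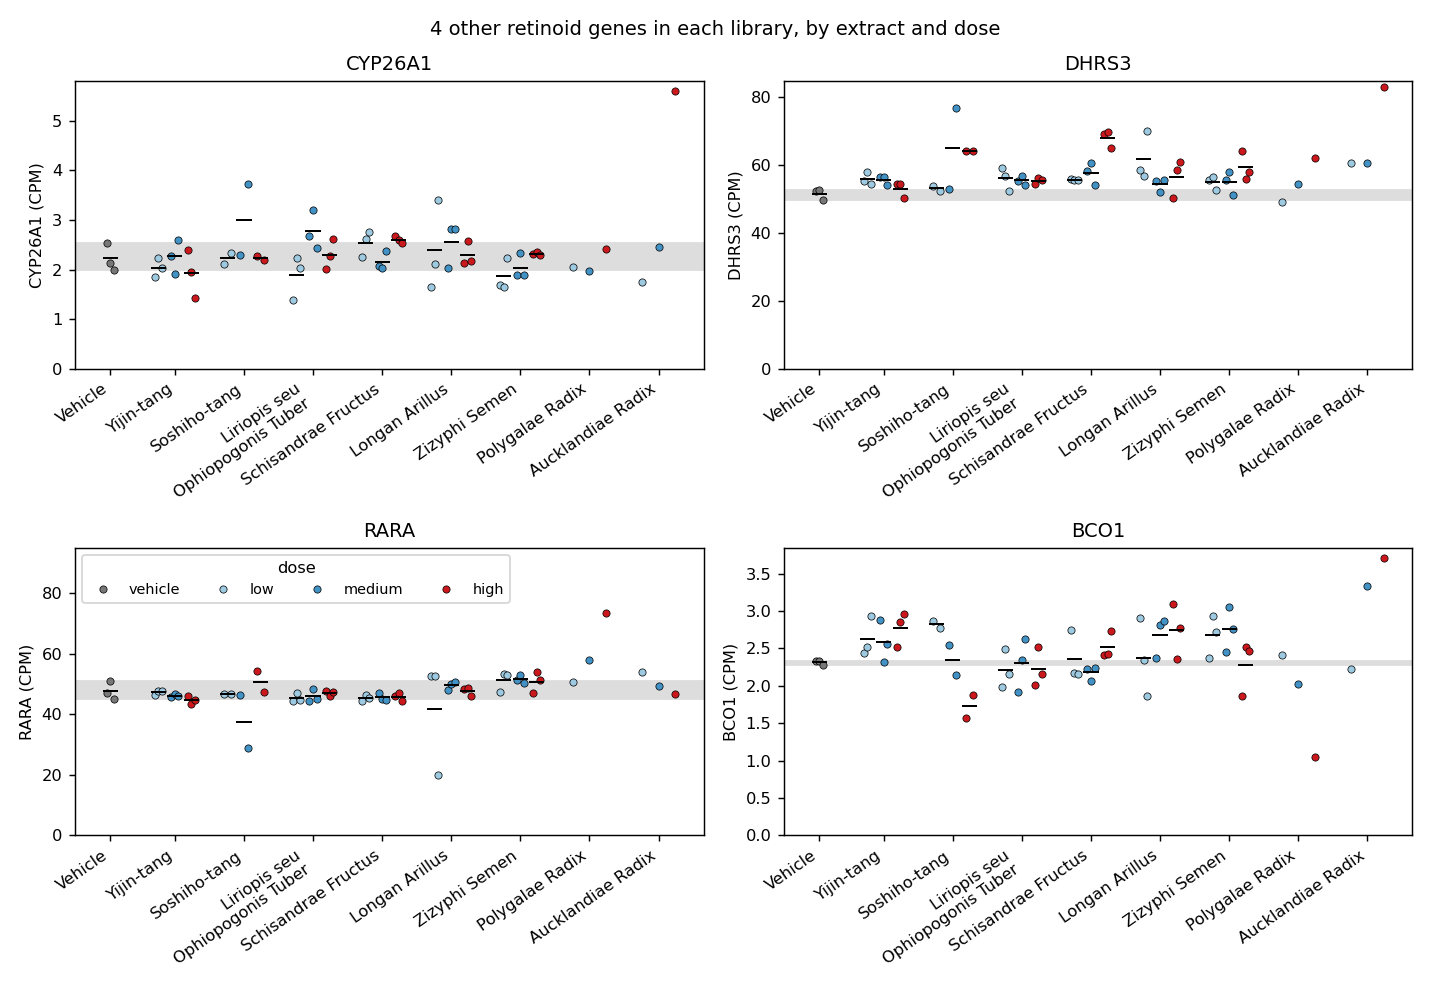
Levels in CPM (vertical axes) of CYP26A1, DHRS3, RARA and BCO1 in each of the 60 libraries by extract and dose (horizontal axes); points are libraries, black lines are means of groups with 2 or 3 libraries and grey bands are the vehicle ranges. CYP26A1 and DHRS3 peak in Aucklandiae Radix high at 5.59 and 82.9 CPM, RARA peaks in Polygalae Radix high at 73.4 CPM, and BCO1 is lowest there at 1.05 CPM.

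BCO1 (ENSG00000135697) and CRABP2 (ENSG00000143320), the source enzyme and the carrier, had 30 to 111 counts per library, and both lay lower in Soshiho-tang high. BCO1 had 1.58 and 1.88 CPM in Soshiho-tang high, 2.87 and 2.78 CPM in Soshiho-tang low and 2.34, 2.34 and 2.28 CPM in vehicle. The high dose did not overlap vehicle or the low dose, and 25.5% of all genes were lower without overlap against vehicle and 25.7% against the low dose. Its log2 fold change was -0.42 over vehicle (SE 0.167) and -0.70 over the low dose (SE 0.181). In Aucklandiae Radix high, by contrast, BCO1 had 3.71 CPM (interval 2.95 to 4.62). CRABP2 had 2.32 and 1.79 CPM in Soshiho-tang high, against 2.85, 2.87 and 2.38 CPM in vehicle. Elsewhere CRABP2 was called higher over vehicle in Longan Arillus low (3.08, 4.21 and 4.84 CPM, log2 fold change 0.58, edgeR adjusted p = 0.017). In that comparison 21.5% of all genes were called higher. Without the 2 libraries CRABP2 was called in 0 of 27 comparisons, with a lowest edgeR adjusted p of 0.0943. BCO1 was called in 0 of 27 with or without them. Over these 27 comparisons 3.57% of all gene tests were called with the 2 libraries and 6.64% without them.

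The 3 receptors, which turn the ligand into a change in transcription, differed from vehicle by little in most groups, with RARA in Polygalae Radix high as an exception. RARA (ENSG00000131759) had 73.4 CPM in Polygalae Radix high, 58.0 CPM at its medium dose and 50.6 CPM at its low dose, against 47.1, 51.1 and 45.0 CPM in vehicle. In Schisandrae Fructus high it had 46.0, 47.0 and 44.5 CPM, overlapping vehicle. The lowest RARA values, 20.1 and 28.8 CPM, belong to the 2 libraries poor in long transcripts. RARB (ENSG00000077092) ran from 18.3 CPM in Longan Arillus low replicate 3 to 30.7 CPM in Polygalae Radix low, and had 27.9, 26.6 and 28.5 CPM in Schisandrae Fructus high against 25.0, 28.8 and 25.7 CPM in vehicle.

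RARB was called higher in Longan Arillus high against low (0.25, SE 0.0732, edgeR adjusted p = 0.0176). The high dose had 28.5, 28.0 and 27.6 CPM and the low dose had 25.4, 26.0 and 18.3 CPM. In that comparison 3.79% of all genes were called higher and 15.0% lower. Without the 2 libraries the RARB log2 fold change was 0.12 (edgeR adjusted p = 0.412). RARG (ENSG00000172819) lay below all vehicle libraries in 39 of 52 extract libraries outside the chosen groups, where 12.5% of all genes had as many below. It fell by 0.15 in Longan Arillus low, 0.14 in Zizyphi Semen low and 0.13 in Zizyphi Semen medium on the log2 scale without the 2 libraries (edgeR adjusted p = 0.0308, 0.0288 and 0.0395). There 13.9%, 14.6% and 15.1% of all genes were called lower, in the same order. With the 2 libraries RARG was called in 0 of 27 comparisons, where 3.57% of all gene tests were called. RARA rose by 0.14 in Longan Arillus low without the 2 libraries (edgeR adjusted p = 0.0379), against a value of -0.17 with them. Without them 11.2% of all genes were called higher in that comparison.

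Over all 216 tests of the 8 genes in the 27 comparisons outside the chosen groups, 3 were called, all higher. Over those 27 comparisons 3.57% of all gene tests were called. All 3 calls lay in comparisons with Longan Arillus low. In Longan Arillus low against vehicle 35.9% of all genes were called, 21.5% higher. In Longan Arillus high against low 18.8% were called, 3.79% higher. Without the 2 libraries 19 of the 216 tests were called, 16 higher and 3 lower, where 6.64% of all gene tests were called. Of these 19 calls, 13 were CYP26B1 against the vehicle libraries that were in view when it was chosen. The 88 tests within sets gave 1 call with the 2 libraries, where 3.36% of all gene tests were called, and 0 without them, where 0.268% were called and the lowest adjusted p was 0.0626. The high-against-low change did not differ between Longan Arillus and Zizyphi Semen for any member beyond the threshold (interaction term, lowest edgeR adjusted p = 0.248, and 0.397 without the 2 libraries). CYP26B1's interaction value was 0.08 with the 2 libraries and -0.19 without them.

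**Figure D4:**
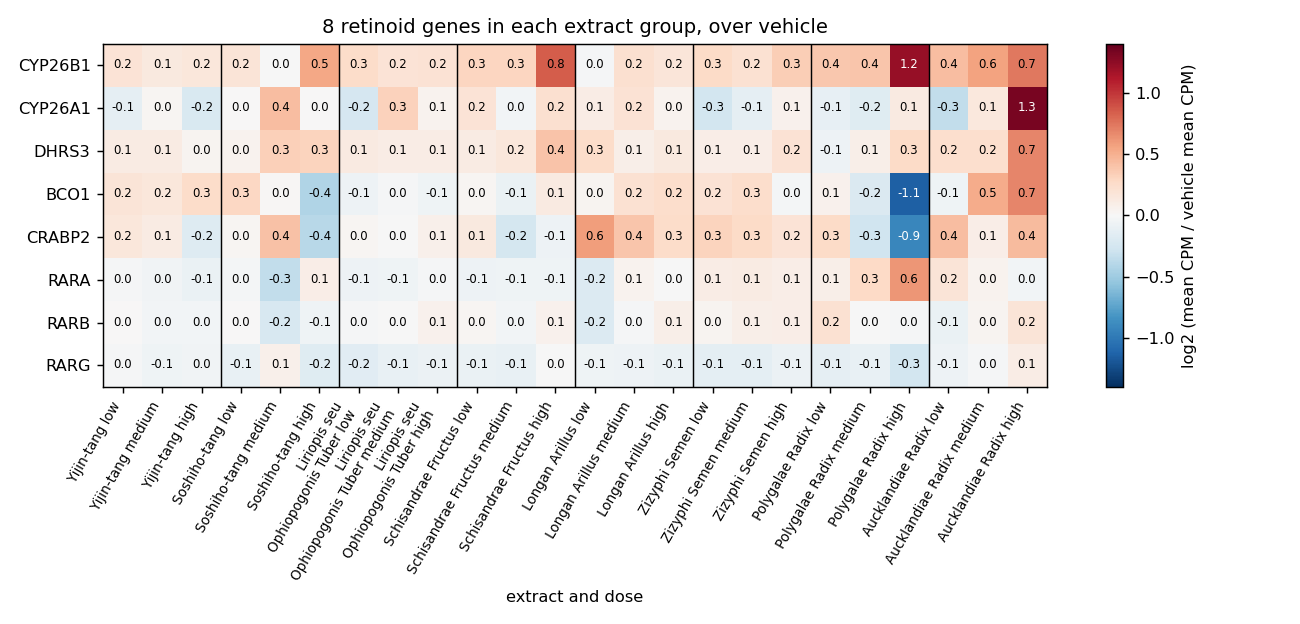
Log2 ratio of each group's mean CPM to the vehicle mean (colour and printed values) for the 8 genes (rows) in 24 extract groups (columns, low to high dose within an extract). The CYP26B1 row is above 0 in all columns but Soshiho-tang medium and Longan Arillus low and is highest in Polygalae Radix high, whose BCO1 and CRABP2 cells are the lowest on the map.

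Polygalae Radix high and Aucklandiae Radix high, with 1 library each and no test, differed in which members stood out. A 2-fold difference from the vehicle mean on the log2(CPM + 1) scale was reached by 1 of 8 members in each: CYP26B1 in Polygalae Radix high, 2.33 times the vehicle mean, and CYP26A1 in Aucklandiae Radix high, 2.52 times. In Polygalae Radix high 3.05% of all genes were that much higher and 8.44% that much lower, and in Aucklandiae Radix high 0.87% were higher and 0.718% lower. In Polygalae Radix high BCO1 had 1.05 CPM from 30 counts (interval 0.711 to 1.5) and CRABP2 had 1.44 CPM from 41 counts (interval 1.03 to 1.95), against vehicle means of 2.32 and 2.7 CPM. In Aucklandiae Radix high DHRS3 was 1.61 times and CYP26B1 1.67 times the vehicle mean.

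The scale matters in Polygalae Radix high. By library totals alone, with no TMM factor, the median of all genes lay 0.228 above vehicle on the log2(CPM + 1) scale, and CYP26B1 had 85.8 CPM, 2.92 times the vehicle mean. RARG was 0.834 times and RARB 0.991 times the vehicle mean with TMM factors, and both turned to above it, 1.05 and 1.24 times, by totals alone. The summed epithelial and A549 markers were 1992 CPM in Polygalae Radix high and 6754 CPM in Aucklandiae Radix high, against 10170 to 10600.0 CPM in vehicle, with KRT8 as low as 473 CPM. The summed leukocyte markers were 5.27 and 35.5 CPM, against 15.0 to 16.8 CPM in vehicle. CD68 averaged 12.3 CPM in vehicle and ran from 1.15 to 27.5 CPM over all libraries, while CD3E reached at most 0.0702 CPM. The part of these shifts in the members' values was not tested. In Schisandrae Fructus high the epithelial sum was 9897 to 10150.0 CPM and in Soshiho-tang high 9688 to 9714 CPM.

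The wider pathway was read from 6 lists with 87 genes, of which 67 were tested. In Yijin-tang high against vehicle 2 of 67 were called higher and 0 lower, where 0.544% of all genes were called. Both are oxidases best known as targets of the aryl hydrocarbon receptor, and their action on retinoids was not measured. CYP1B1 averaged 173 ± 6.62 CPM in Yijin-tang high and 94.4 ± 1.82 CPM in vehicle (SD, n = 3 each, log2 fold change 0.88, edgeR adjusted p = 3.3e-09). CYP1A1 averaged 3.66 ± 0.413 CPM in Yijin-tang high and 1.18 ± 0.267 CPM in vehicle (1.63, edgeR adjusted p = 1e-06). Both also rose against Yijin-tang low, by 0.77 and 1.44 on the log2 scale, where 0.146% of all genes were called. The 3 lists of uptake, of retinol and retinaldehyde oxidoreductases and of retinaldehyde dehydrogenases had 0 of 22 genes called there.

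In Zizyphi Semen high against vehicle 6 of the 67 were called higher and 4 lower, where 3.66% of all genes were called. STRA6, the cell-surface receptor for retinol-binding protein, averaged 51.9 ± 1.65 CPM in Zizyphi Semen high and 42.9 ± 0.541 CPM in vehicle (log2 fold change 0.27, edgeR adjusted p = 0.0107). HOXA3, a homeobox gene that retinoic acid induces in embryonic cells, averaged 25.1 ± 0.585 CPM in Zizyphi Semen high and 17.3 ± 0.995 CPM in vehicle (0.54, adjusted p = 0.00308). The aldo-keto reductase AKR1B10, which reduces retinaldehyde, averaged 2155 ± 8.7 CPM against 2656 ± 52.6 CPM in vehicle (-0.30, adjusted p = 0.017). PDK4, a mitochondrial kinase listed as a retinoic acid response gene, averaged 21.1 ± 1.01 CPM in the high dose and 33.1 ± 2.01 CPM in vehicle (-0.65, adjusted p = 1.53e-05). It was also the 1 listed gene called against the low dose (-0.73, edgeR adjusted p = 8.58e-06), where 0.028% of all genes were called.

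HOXA3 and STRA6 recurred across extracts in comparisons with the same vehicle libraries. HOXA3 was called higher over vehicle in Liriopis seu Ophiopogonis Tuber high (24.4 ± 0.183 CPM, adjusted p = 0.0195) and in Longan Arillus high (24.0 ± 1.57 CPM, edgeR adjusted p = 0.0151). STRA6 was called higher in Longan Arillus high (52.9 ± 5.09 CPM, edgeR adjusted p = 0.00741). In Longan Arillus high 2 of the 67 were called higher and 1 lower, where 1.33% of all genes were called, and in Liriopis seu Ophiopogonis Tuber high 1 was higher and 0 lower, where 0.32% were called. Without the 2 libraries poor in long transcripts, the listed genes called against vehicle were 9 higher and 6 lower in Yijin-tang high (7.17% of all genes), 15 and 10 in Zizyphi Semen high (22.1%), 10 and 8 in Longan Arillus high (13.8%) and 10 and 7 in Liriopis seu Ophiopogonis Tuber high (7.27%), each with the higher genes first. CYP1A1 and CYP1B1 in Yijin-tang high, STRA6 and HOXA3 in Longan Arillus high and Zizyphi Semen high, HOXA3 in Liriopis seu Ophiopogonis Tuber high, and AKR1B10 and PDK4 in Zizyphi Semen high were called there too, with log2 fold changes within 0.01 of those with all libraries.

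In the groups for which CYP26B1 was chosen, values of the genes named above are given as a description. CYP1B1 averaged 131 CPM in Schisandrae Fructus high, 92.5 CPM in its low dose and 94.4 CPM in vehicle. STRA6 averaged 61.7 CPM in Soshiho-tang high and 52.1 CPM in Schisandrae Fructus high, against 42.9 CPM in vehicle. HOXA3 averaged 25.9 CPM in Schisandrae Fructus high and 17.3 CPM in vehicle. CYP1B1 averaged 190 CPM and CYP1A1 4.18 CPM in Soshiho-tang high, against 94.4 and 1.18 CPM in vehicle. Log2 fold changes over vehicle were 0.28 for HOXA3 in Soshiho-tang high and 0.61 for CYP1A1 in Schisandrae Fructus high. For AKR1B10 they were 0.00222 in Schisandrae Fructus high and -0.18 in Soshiho-tang high. PDK4, lower in Zizyphi Semen high, had 0.23 and 0.14 in the same order. The median log2 fold change of the 27 tested response genes was 0.18 in Schisandrae Fructus high and 0.05 in Soshiho-tang high, beside medians over all genes of -0.00154 and 0.00337.

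**Figure D5:**
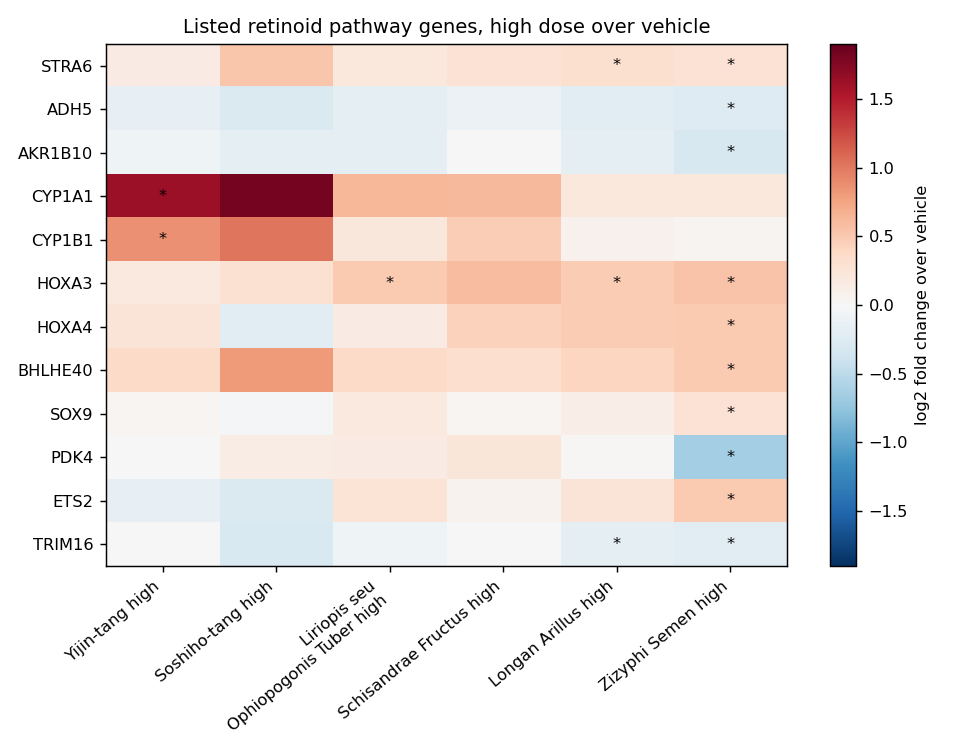
Log2 fold change over vehicle (colour) of the listed pathway genes called in at least 1 of the high-dose groups of Yijin-tang, Liriopis seu Ophiopogonis Tuber, Longan Arillus and Zizyphi Semen (columns: high-dose groups; rows: genes); a star marks an adjusted p under 0.05 in edgeR's quasi-likelihood test on 54 libraries. The Schisandrae Fructus and Soshiho-tang columns belong to the groups for which CYP26B1 was chosen and carry no test; CYP1A1 has the deepest colour, in Yijin-tang and Soshiho-tang.

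In Polygalae Radix high 4 of the 67 listed genes were at least 2-fold higher and 14 at least 2-fold lower than the vehicle mean, beside the shares of 3.05% and 8.44% of all genes given above. ALDH1A1, which makes retinoic acid from retinaldehyde, had 965 CPM in Polygalae Radix high against 6401 ± 50.8 CPM in vehicle. STRA6 had 15.1 CPM against 42.9 ± 0.541 CPM, and AKR1B10 had 674 CPM against 2656 ± 52.6 CPM. Of the 27 tested response genes 4 were at least 2-fold higher and 3 at least 2-fold lower there. HOXA3 and HOXA5 were higher, with 48.8 CPM against 17.3 ± 0.995 CPM and 7.13 CPM against 2.31 ± 0.267 CPM. TGM2 and LAMB1 were lower, with 114.5 CPM against 583.1 ± 9.13 CPM and 144.4 CPM against 321.2 ± 5.88 CPM. In Aucklandiae Radix high 1 of the 67 was higher and 1 lower: CYP1A1 had 6.37 CPM against 1.18 ± 0.267 CPM, and AKR1B10 had 1011 CPM against 2656 ± 52.6 CPM.

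The genes whose group means followed CYP26B1 most closely were ranked by Pearson's r of mean log2(CPM + 1) over the 25 groups, among 13174 genes. The highest were CACNG7 (r = 0.902), KLF11 (0.882), NATD1 (0.868), MAP3K10 (0.867) and JOSD1 (0.86), and the lowest were CHORDC1 (-0.864), GPX1 (-0.862) and KIF20B (-0.855). Over the 19 replicated groups alone, without Polygalae Radix and Aucklandiae Radix, CACNG7 kept r = 0.815 and KLF11 0.777, while MAP3K10 had 0.679 and KIF20B -0.646. CACNG7, a subunit of voltage-gated calcium channels, had 44.3 CPM in Aucklandiae Radix high and means of 32.8 in Schisandrae Fructus high, 31.5 in Soshiho-tang high and 23.3 ± 0.844 CPM in vehicle. Among the other members RARA had r = 0.688 (rank 627), DHRS3 0.52 and CRABP2 -0.538; over the 19 replicated groups these were 0.437, 0.507 and -0.541. Without the 2 libraries poor in long transcripts, over 25 groups, RARA had r = 0.61, DHRS3 0.687 and CRABP2 -0.445, CACNG7 had 0.898, and the other 7 most and least alike genes had sizes of r from 0.815 to 0.864. The groups share sets, scaling factors and the 2 libraries that stand apart, so these correlations describe the series and carry no p-value.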

How the data were processed

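Libraries were made from total RNA with a directional mRNA kit and read as 100 bp pairs, per the labels' protocols. Per the submitters' processing notes, the tools named were RSEM 1.3.3, STAR 2.7.3a, FastQC 0.11.9 and Trim Galore 0.6.5, and the builds GRCh38 and hg38, with no order given. Expected counts for each Ensembl gene were deposited in 1 table, in which 10.5% of values are not whole; they were rounded. From them CPM was computed with TMM factors over 60 libraries.

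Tests used edgeR 4.0.16 quasi-likelihood (R 4.3.3, limma 3.58.1, filterByExpr, robust) with 1 coefficient per group over the 54 libraries of 19 replicated groups, 33 contrasts (those with a chosen group are given without a test), Benjamini-Hochberg over all genes of a contrast, called at 0.05. Single libraries got log2 ratios of CPM plus a pseudocount of 1 and exact 95% Poisson intervals. The fit was tested on simulated counts with the same dispersion for every gene. The simulation held no library poor in long transcripts, so it does not cover their effect on the fit. Exon lengths came from GENCODE 29 and promoters from RefSeq. Replicates of a group differed by more than sampling noise (chi-square over its degrees of freedom at least 1.87). Alternatives were RLE factors, no filter, a replicate block, DESeq2 1.42.0, fits of the compared groups only, fits without the 2 libraries that stand apart, and leaving out each library.

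The members and lists were chosen with earlier results of these data known. Named genes are all members, up to 4 called genes of each list and contrast with the largest change, and the 5 most and 3 least alike to CYP26B1.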

Additional observations from a re-analysis of the deposited data

Results flagged for a closer look

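RARA lay on opposite sides of the low dose in the high doses of the 2 decoctions of set 8. In Yijin-tang the high dose had 46.1, 43.5 and 44.7 CPM and the low dose 46.4, 47.6 and 47.7 CPM, every high-dose library lower, as for 7.9% of all genes tested. In Soshiho-tang the high dose had 54.2 and 47.4 CPM and the low dose 46.7 and 46.8 CPM, every high-dose library higher, as for 25.7% of all genes tested. The difference between the 2 log2 ratios was -0.196 (Yijin-tang minus Soshiho-tang), and it was not tested. Within Yijin-tang the log2 fold change was -0.08 (edgeR adjusted p = 1 with all libraries and 0.738 without the 2 that stand apart).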

How the results depend on the processing

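The 3 member calls outside the chosen groups were 4 with RLE factors, 5 with DESeq2 and 1 without the filter on low counts. They were 19 without the 2 libraries poor in long transcripts and 17 when only the compared groups were fitted. Leaving out 1 library at a time gave 2 to 16; the count moved by over 1.5 times without Soshiho-tang medium replicate 2 (16, which leaves that group with 1 library assumed to vary like the others) or 3 (5) and without Longan Arillus low replicate 1 (10), 2 (9) or 3 (15). The 102 calls over the pathway lists in the same comparisons were 55 without the filter, 269 without the 2 libraries, 295 with the compared groups only, and 67 to 203 leaving out 1 library; they moved by over 1.5 times without vehicle replicate 3 (67), Soshiho-tang medium replicate 2 (203) and replicate 1 (155), 2 (162) or 3 (200) of Longan Arillus low. The common dispersion was 0.0173 with the 2 libraries and 0.00244 without them.

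Replicate numbers paired the libraries in 0 of the 27 comparisons with 3 shared numbers, so they are treated as names. Comparisons with Soshiho-tang share 2 numbers, too few for this check. With the replicate block the member calls were 3 and the list calls 104. The block without the 2 libraries, chosen after seeing the data, gave 24 and 291.

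CYP26B1 in Schisandrae Fructus high stayed between 0.83 and 0.87 over vehicle and between 0.51 and 0.57 over its low dose when 1 library was left out, and in Soshiho-tang high between 0.52 and 0.56 and between 0.33 and 0.40. By library totals only, the log2(CPM + 1) ratios of Polygalae Radix high over vehicle were 1.52 for CYP26B1, against 1.19, and 0.59 for DHRS3, against 0.27. CYP26B1 in Soshiho-tang medium, at -0.000323 over vehicle, changed sign to 0.00926 with RLE factors, 0.0196 without the filter, 0.103 without the 2 libraries, 0.0143 with the block, 0.105 with the block and without the 2 libraries, 0.00307 with the compared groups only, 0.00957 with DESeq2, and ran from -0.112 (without its replicate 2) to 0.105 (without its replicate 3) leaving out 1 library, with sign changes also without vehicle replicate 1 (0.025) or 3 (0.00523). CYP26B1 in Longan Arillus low, at 0.00134, changed sign to -0.0265 without the filter, -0.00869 with the block, and ran from -0.177 to 0.272 leaving out 1 library: negative without its replicate 1 (-0.177) or 2 (-0.134) or vehicle replicate 2 (-0.0141), and 0.272 without its replicate 3. The cause of these changes was not tested. With 3 vehicle libraries of 1 set, no setting separates set from treatment, and BCO1, CRABP2 and CYP26A1, with 25 to 122 counts, allow only large differences to be seen.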
